A study of Mus musculus with 6 samples.

Results

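FGF10 signalling and its ERK feedback were followed through 10 genes in embryonic pancreatic buds exposed to inhibitors of the BET proteins, which recognise acetylated histones and help RNA polymerase into elongation. The genes were the ligand gene Fgf10, the receptor genes Fgfr1 and Fgfr2, and the feedback and target genes Spry1, Spry2, Spry4, Il17rd, Dusp6, Etv4 and Etv5. They were listed by name for their place in the pathway, with earlier results of these data known. All 10 were found among the 24010 genes named on the array. Dorsal buds of mouse embryos at stage E11.5 were kept in culture for 24 h with I-BET151 at 500 nM, with JQ1 at 100 nM, or with 0.1% DMSO alone as the control (CTRL). Each array held RNA from a pool of 10 buds, and there were 2 arrays in each of the 3 groups. The labels give no genotype or strain, and nothing in them ties the pools to litters or to days of culture. The p-values thus reflect the scatter of these pools, part or all of which may be technical.

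In the developing pancreas, FGF10 is made by the mesenchyme around the bud. It binds an epithelial splice form of the receptor FGFR2 together with heparan sulfate, and the signal passes through RAS, RAF and MEK to the kinase ERK, which keeps the epithelial progenitors dividing. ERK also switches on its own brakes: the Sprouty proteins and IL17RD (also called SEF) act on the cascade, and DUSP6 removes phosphate from ERK. The signal also switches on the genes of the ETS factors ETV4 and ETV5, which are not brakes and carry the response to target genes. The level of these transcripts is therefore widely read as an output of FGF signalling.

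The median intensity was between 54 and 57 on each array, and log2 values of the 2 arrays of a group had a correlation of 0.995 to 0.996 over genes. Arrays of different groups correlated at 0.990 to 0.996, so the range within groups says little about replicate agreement. Hexim1, whose rise is a widely used sign of BET inhibition, was at 982 and 1053 on the I-BET151 arrays and 1263 and 1304 on the JQ1 arrays, against 625 and 656 on the control arrays, and rose under each (limma adjusted p = 0.0432 and 0.0143). In bulk tissue, fewer cells of a type and less RNA per cell cannot be told apart. The summed intensity of 13 mesenchyme markers was 14775 to 15369 under I-BET151 and 14812 to 14864 under JQ1, against 17559 to 18084 in controls, and that of 12 epithelium markers was 5888 to 6177 with I-BET151 and 6027 to 6374 with JQ1, against 6675 to 6815 in controls. The 10 endothelium markers summed to 4424 to 4778 with I-BET151 and 4167 to 4253 with JQ1, against 6115 to 6272 in controls. The 8 neural and glial markers summed to 1850 to 1972 with I-BET151 and 1878 to 1886 with JQ1, against 2853 to 2867 in controls. The 7 blood and immune markers summed to 8841 to 9013 with I-BET151 and 8793 to 8950 with JQ1, against 8525 to 9464 in controls. Bright markers weigh most in such sums: Hbb-y was at 6181 to 6727 over the 6 arrays, and the mesenchyme marker Vim at 6392 to 7184. Cldn3 moved the epithelium sum most (means 391.5 with I-BET151 and 370 with JQ1, against 741 in controls). Cldn6 was higher (769.5 and 842.5 against 658.5). Fabp7 moved the neural and glial sum most (254 and 169.5 against 812), and Ncam1 was higher (807.5 and 855 against 722.5). For the mean of both inhibitors, 3 of 12 epithelium and 1 of 8 neural and glial markers had a log2 change above 0. Within the blood and immune list, Csf1r was higher with I-BET151 (824 and 701) and JQ1 (633 and 700) than in controls (540 and 592). Cd68 was lower (898 and 860, and 772 and 791, against 1016 and 1120). For the mean of both inhibitors 3 mesenchyme, 2 epithelium, 5 endothelium and 3 neural and glial markers fell, 0 blood and immune markers were called and none of any list rose. No marker was at the lowest value of the table. The part of these shifts in the results below was not tested. Sox9 and Pdx1, genes of the progenitor epithelium, were above the array median on all 6 arrays. Of the mesenchyme markers, Vim and Pdgfra were above it on all 6, Thy1 was near it (54 to 77) and Lum was below it (10 to 25). A level above the median does not by itself show that a cell type is present.

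Of the 10 genes, Spry1 and Il17rd rose, both inhibitors of the ERK cascade, while the ligand, the receptors, Spry2, Spry4, Dusp6, Etv4 and Etv5 did not pass the test. The test was limma's moderated test on log2 intensity, with all 6 arrays in 1 fit and Benjamini-Hochberg adjustment over 24010 genes, and an adjusted p under 0.05 counted as a call. Under I-BET151, 2 of 10 genes rose (Spry1 and Il17rd) where 0.262% of all genes did, and under JQ1 1 of 10 rose (Il17rd) where 1.13% did. None of the 10 fell. The share of all genes that fell was 0.87% with I-BET151 and 2.67% with JQ1. For the mean of both inhibitors against control, Spry1 and Il17rd rose, where 1.59% of all genes rose and 3.33% fell. Counted either way, 1.13%, 3.8% and 4.92% of all genes were called in these 3 contrasts. These shares include dim genes, while all 10 genes were in the brighter 50%. With the dimmer 50% left out, 595 genes rose under I-BET151, 1043 under JQ1 and 1208 for the mean of both. Of the 10 genes, 2, 4 and 4 rose in those fits, and Etv4 fell for the mean of both. An unadjusted p under 0.05 was reached by 5 of the 10 genes under I-BET151 (18.9% of all genes), 4 under JQ1 (21.6%) and 5 for the mean of both (22.7%). With each array centred on its median, the genes called were 183 higher and 350 lower in place of 63 and 209 under I-BET151, 664 and 727 in place of 272 and 640 under JQ1, and 881 and 857 in place of 382 and 799 for the mean of both.

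Both inhibitors were set against the same 2 control arrays. The log2 change was above 0 for 8 genes under each inhibitor and below 0 for Dusp6 and Etv4. Its median over the 10 genes was 0.24 under I-BET151 and 0.17 under JQ1, where the median of all genes was 0.00 and 0.02. Both I-BET151 arrays were above both control arrays for 6 of the 10 genes and below them for 1, as 21.5% and 20.7% of all genes were (7 genes either way, against 42.1%). Both JQ1 arrays were above for 5 and below for 1, as 23.9% and 21% of all genes were (6 either way, against 44.9%). All 4 treated arrays were above both controls for 5 genes and below them for 1, as 14.4% and 14.9% of all genes were (6 either way, against 29.4%).

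**Figure D1:**
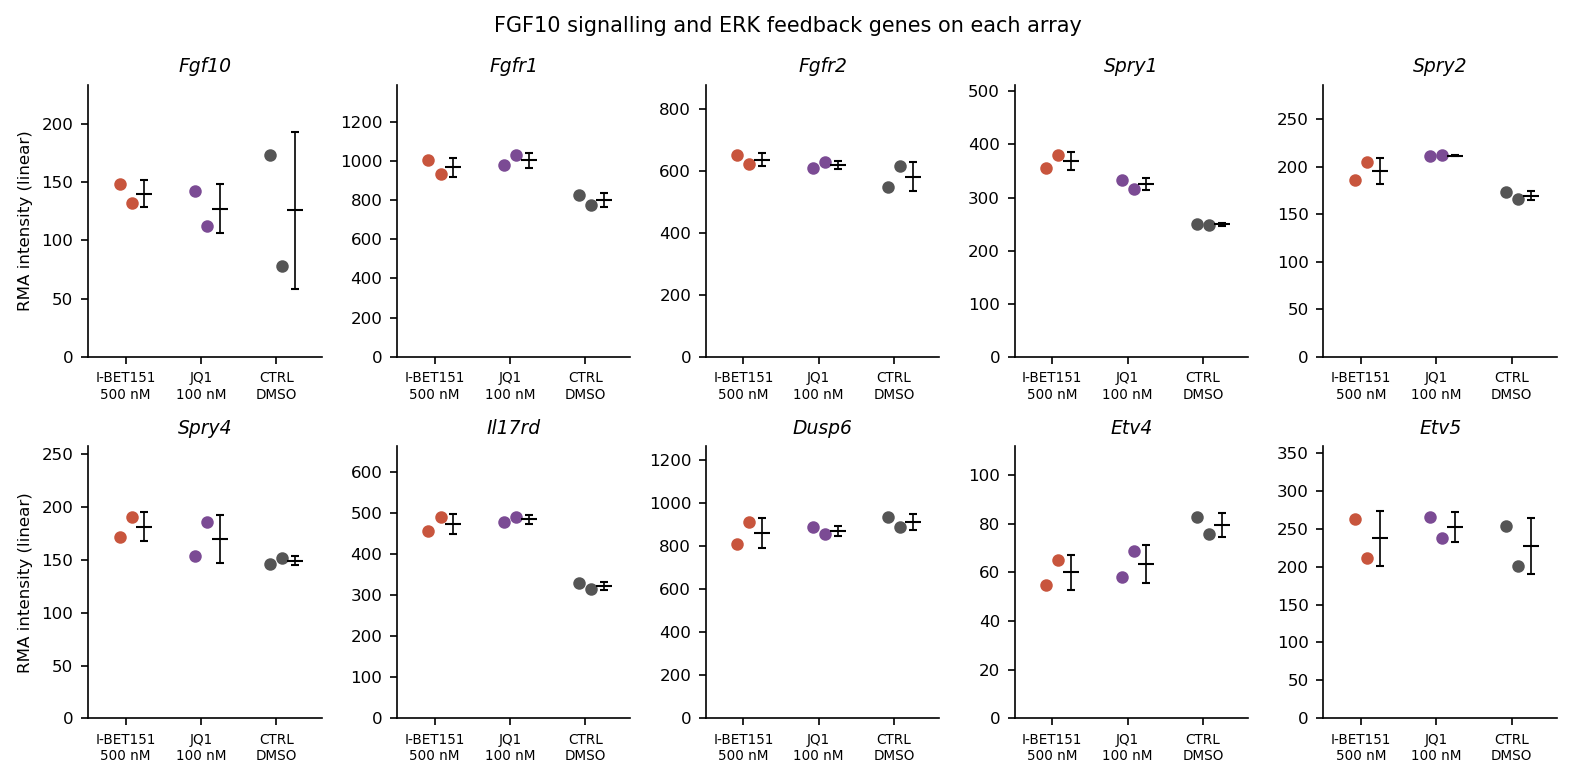
RMA intensity on a linear scale (y axis, from 0) on each array for the 10 genes, with I-BET151 500 nM, JQ1 100 nM and control groups along the x axis. Points are arrays, and the bar beside them is the mean ± SD of 2 arrays. The 4 treated arrays of Il17rd lie between 457 and 492, above 329 and 315 in controls, whereas the Fgf10 controls stand apart at 173 and 78.

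The ligand gene Fgf10 was not called, and its control arrays lay far apart. It was at 148 and 132 on the I-BET151 arrays and 142 and 112 on the JQ1 arrays, against 173 and 78 on the control arrays. All 4 treated arrays lay between the control arrays, which differed 2.22-fold from each other, and the spread of the controls was larger than that of 99.9% of named genes on the log2 scale. The log2 change was 0.27 ± 0.40 (SE) under I-BET151 and 0.12 ± 0.40 under JQ1, with 95% intervals of -0.77 to 1.30 and -0.91 to 1.15. Its direction rested on a single control pool. Without CTRL 2, which held the low value, the log2 changes were -0.31 under I-BET151 and -0.46 under JQ1, and without CTRL 1 they were 0.84 and 0.69. Without CTRL 1 and the dimmer 50% of genes, Fgf10 passed for the mean of both inhibitors (limma adjusted p = 0.0356), the 1 fit of 20 alternatives in which it did.

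Genes whose pattern over the 6 arrays was most like that of Fgf10 were Orai2, Zfp33b, Fxyd7, Prob1 and Csrnp1, out of 11274 genes brighter than the median gene. Likeness was the root mean square difference between the centred log2 values, and it was 0.17 to 0.19 for these genes. Each of them was lower on CTRL 2 than on CTRL 1, as Orai2 shows with 93 and 57 on the control arrays. That follows from choosing them for likeness to Fgf10 and is no separate finding about the control pools. No gene came within 0.1 of the Fgf10 pattern.

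Neither receptor gene was called. Fgfr2, whose epithelial splice form is the FGF10 receptor, was at 651 and 621 with I-BET151 and 610 and 629 with JQ1, against 548 and 615 in controls. Its log2 change was 0.13 ± 0.08 under I-BET151 and 0.09 ± 0.08 under JQ1 (limma adjusted p = 0.456 and 0.578), and the 95% intervals reached from -0.08 to 0.34 and from -0.11 to 0.30. Both I-BET151 arrays were above both controls, and 1 JQ1 array was below the higher control. The table has 1 row for the gene, so splice forms were not separated. Fgfr1, which serves mesenchymal and other cells, was at 1002 and 932 with I-BET151 and 976 and 1029 with JQ1, against 827 and 776 in controls. All 4 treated arrays were above both control arrays, with log2 changes of 0.27 ± 0.07 and 0.32 ± 0.07, but neither passed (adjusted p = 0.162 and 0.0917), and the mean of both inhibitors had an adjusted p of 0.0742. For that mean Fgfr1 passed in 4 of 8 alternative settings that kept all arrays.

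Among the Sprouty genes, which encode membrane-recruited inhibitors of receptor tyrosine kinase signalling, Spry1 had the largest changes. Spry1 was at 356 and 380 on the I-BET151 arrays and 333 and 317 on the JQ1 arrays, against 251 and 248 in controls. No treated array overlapped the controls, and the control pools differed by 3 units. It rose 1.47-fold under I-BET151 (368 ± 17 against 249.5 ± 2.12, SD, n = 2; log2 change 0.56 ± 0.06, limma adjusted p = 0.0461). Under JQ1 it was 1.30-fold higher (325 ± 11.3) and narrowly missed the threshold (log2 change 0.38 ± 0.06, adjusted p = 0.0545). For the mean of both inhibitors it rose (log2 change 0.47 ± 0.06, adjusted p = 0.0259), a change above that of 98.2% of all genes.

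Spry2 and Spry4 had smaller changes above 0 and were not called. Spry2 was at 186 and 205 with I-BET151 and 211 and 212 with JQ1, against 173 and 166 in controls, with no overlap with the controls (log2 changes 0.20 ± 0.07 and 0.32 ± 0.07, adjusted p = 0.235 and 0.0900). Spry4 was at 172 and 191 with I-BET151 and 154 and 186 with JQ1, against 146 and 152 in controls. Its lower JQ1 array stood 2 units above the higher control, and the log2 changes were 0.28 ± 0.12 and 0.18 ± 0.12 (adjusted p = 0.289 and 0.446).

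Il17rd, which encodes a transmembrane antagonist that holds back ERK signalling below FGF receptors, rose under each inhibitor. It was at 457 and 492 on the I-BET151 arrays and 478 and 492 on the JQ1 arrays, against 329 and 315 on the control arrays. The 4 treated arrays lay close together and well clear of the controls. It rose 1.47-fold under I-BET151 (474.5 ± 24.7 against 322 ± 9.90, SD, n = 2; log2 change 0.56 ± 0.07, adjusted p = 0.0487) and 1.51-fold under JQ1 (485 ± 9.90; log2 change 0.59 ± 0.07, adjusted p = 0.0261). Its log2 change exceeded that of 98.9% of named genes under each inhibitor.

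The calls for Spry1 and Il17rd rest on having all 6 arrays in 1 fit. With only the 4 arrays of a contrast fitted, 0 of the 10 genes and 0 of all genes were called under either inhibitor. Without any single array, whichever of the 6 was left out, neither gene passed (adjusted p 0.149 to 0.245 for both under I-BET151, and 0.0769 to 0.166 for Il17rd under JQ1), and no gene of the 24010 did. With the dimmer 50% of genes left out as well, an alternative chosen after seeing the data, Spry1 passed under I-BET151 in 6 of 6 such fits and Il17rd in 5 of 6, missing without CTRL 2 (adjusted p = 0.0522), and Il17rd passed under JQ1 in 6 of 6.

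**Figure D2:**
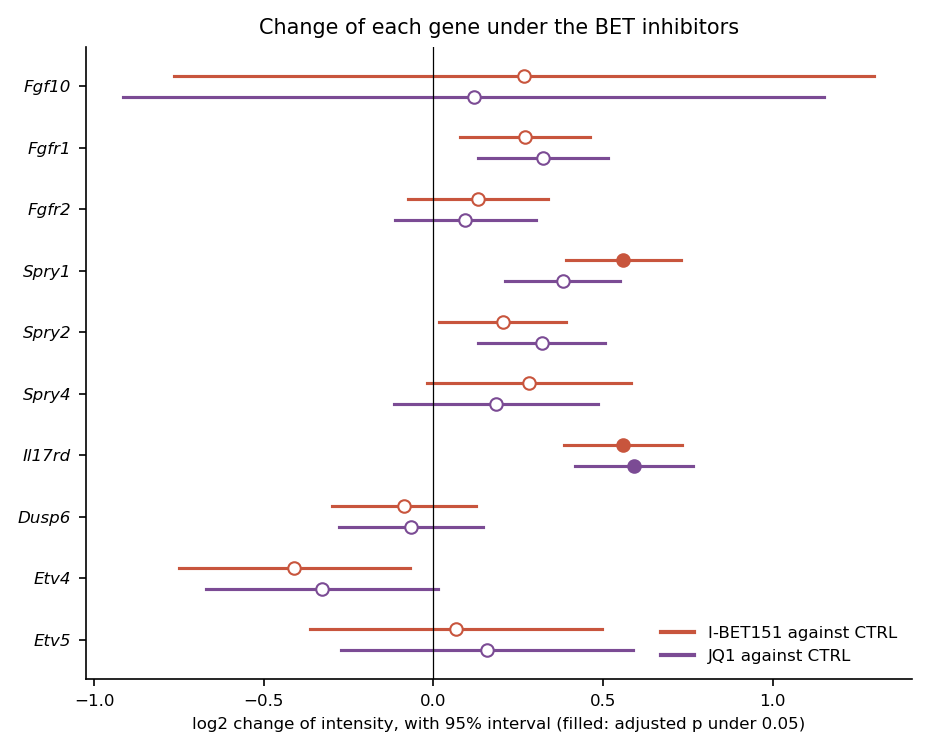
Log2 change of intensity against control (x axis) for each gene (y axis), with 95% intervals from the fit. I-BET151 is drawn above JQ1, and filled points passed at an adjusted p under 0.05. Il17rd passed under both inhibitors and Spry1 under I-BET151, and the Fgf10 intervals run from -0.77 to 1.30 and from -0.91 to 1.15.

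Genes with a pattern most like Il17rd were Angel1, Cyp46a1, Sh2b2, Dynll2 and Farp2, with root mean square differences of 0.03 to 0.05 from it over the 6 arrays. For Spry1 they were Fbxl21, Ift88, Acer3, Map2 and Dnajc27, at 0.04 to 0.05. Such patterns were not particular to Il17rd and Spry1: 170 of the 11274 genes compared lay within 0.1 of Il17rd and 138 within 0.1 of Spry1.

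Dusp6, an ERK phosphatase gene widely used as a readout of FGF-ERK signalling, was not called. It was at 811 and 911 with I-BET151 and 889 and 856 with JQ1, against 938 and 888 in controls, and the groups overlapped. The log2 change was -0.09 ± 0.08 under I-BET151 and -0.07 ± 0.08 under JQ1 (adjusted p = 0.632 and 0.705), with 95% intervals of -0.30 to 0.13 and -0.28 to 0.15.

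Promoter windows of the called genes Spry1 and Il17rd are shown beside that of Dusp6, which was not called, from RefSeq (GRCm38.p6), 250 bases up to the gene's start, 5′ to 3′ on the gene's strand. Capitals mark GGAA, the core recognised by ETS factors such as ETV4 and ETV5, or TTCC, the same core on the other strand.
Spry1, chr3:37639697-37639946, + strand: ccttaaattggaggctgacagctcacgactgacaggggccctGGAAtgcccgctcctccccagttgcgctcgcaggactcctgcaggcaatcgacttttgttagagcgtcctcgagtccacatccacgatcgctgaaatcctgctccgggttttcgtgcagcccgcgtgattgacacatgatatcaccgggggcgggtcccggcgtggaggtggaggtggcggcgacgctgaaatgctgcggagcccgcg
Il17rd, chr14:27038751-27039000, + strand: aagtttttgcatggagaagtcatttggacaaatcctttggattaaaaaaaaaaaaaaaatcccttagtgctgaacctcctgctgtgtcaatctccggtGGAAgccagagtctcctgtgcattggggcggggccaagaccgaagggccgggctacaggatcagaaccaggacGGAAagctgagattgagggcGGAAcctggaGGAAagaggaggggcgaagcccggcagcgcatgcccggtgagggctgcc
Dusp6, chr10:99262981-99263230, + strand: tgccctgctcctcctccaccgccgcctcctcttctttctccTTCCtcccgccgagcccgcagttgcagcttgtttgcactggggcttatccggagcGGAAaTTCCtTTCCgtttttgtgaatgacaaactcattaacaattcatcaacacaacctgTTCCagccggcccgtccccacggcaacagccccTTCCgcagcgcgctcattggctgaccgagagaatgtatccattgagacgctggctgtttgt
The Spry1 window held 1 such core, the Il17rd window 4 and the Dusp6 window 6. The core is short and is found on either strand in 93.4% of the 32851 promoter windows of that length. The longer ETS motif CCGGAAG, searched on both strands, is in 6.91% of all windows and in none of the 8 windows searched for 7 of the 10 genes. No window of Fgfr1, Spry4 or Etv4 was searched, so nothing is known here of the motif in them. Windows on a single chromosome were left out for the 10 genes but kept in the share of all windows. GC content was 62.4% for Spry1, 54.4% for Il17rd and 56.4% for Dusp6, against a median of 52.4% over all windows. A match is a description of the sequence only.

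Neither ETS factor gene was called. Etv4 had the lowest mean of the 10 genes in each group, though it was at or above the array medians of 54 to 57. It was at 55 and 65 with I-BET151 and 58 and 69 with JQ1, against 83 and 76 in controls. All 4 treated arrays were below both controls, 1.33-fold and 1.26-fold lower on average, but neither change passed (log2 change -0.41 ± 0.13 and -0.33 ± 0.13, adjusted p = 0.205 and 0.245). Etv5 was at 263 and 212 with I-BET151 and 266 and 238 with JQ1, against 253 and 201 in controls. Its arrays overlapped between all groups, and the log2 changes were 0.07 ± 0.16 and 0.16 ± 0.16 (adjusted p = 0.875 and 0.653). Without CTRL 2 they were -0.10 and -0.0079.

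The compounds were given at different doses, so compound and dose cannot be told apart, and their values are set side by side. Over the 10 pairs of values, the I-BET151 minus JQ1 difference lay between -0.12 for Spry2 and 0.18 for Spry1 on the log2 scale, and no gene of the 24010 was called in that contrast (limma, adjusted p under 0.05; 6.71% had an unadjusted p under 0.05). Spry1 was higher on both I-BET151 arrays than on both JQ1 arrays (356 and 380 against 333 and 317), and Spry2 was lower (186 and 205 against 211 and 212): 2 of 10 genes without overlap, against 28.5% of all genes (13.9% higher). The Spry1 difference had a 95% interval of 0.01 to 0.35 and an adjusted p of 0.735. For Il17rd the interval was -0.21 to 0.14, and for Dusp6 it was -0.23 to 0.19.

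Beyond the 10 genes, the other FGF ligands were examined first. Of 17 ligand genes, Fgf18 rose under JQ1 and for the mean of both inhibitors, and none fell. Fgf18, which encodes a ligand of the FGF8 subfamily that acts mainly on mesenchymal receptor forms, was at 259 and 250 with I-BET151 and 325 and 327 with JQ1, against 138 and 165 in controls. No treated array overlapped the controls. The rise was 2.16-fold under JQ1 (log2 change 1.11 ± 0.10, adjusted p = 0.0187), larger than for any of the 10 genes, and Fgf18 was 1.69-fold higher under I-BET151 (0.75 ± 0.10, adjusted p = 0.0560). Fgf9, an FGF made by epithelia and mesothelium, was at 300 and 354 with I-BET151 and 325 and 324 with JQ1, against 233 and 260 in controls, about 1.32-fold higher under each, and was not called (adjusted p = 0.157 and 0.125). For the mean of both inhibitors Fgf9 was not called either (limma adjusted p = 0.0852), but it passed in 3 of 8 alternative settings that kept all arrays. Fgf7, the ligand closest to FGF10 in receptor use and named after its values were seen, was at 13 to 15 on all arrays, close to the lowest value of 5.

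Among 10 other receptor and co-receptor genes, none was called with all arrays and genes in the fit, and their median log2 change was -0.14 under I-BET151 and -0.07 under JQ1. The largest difference was in Klb, the co-receptor for endocrine FGFs, at 96 and 114 with I-BET151 and 103 and 125 with JQ1, against 158 and 177 in controls (adjusted p = 0.114 and 0.112). Flrt2, which encodes a membrane protein that binds FGF receptors, was at 1129 and 1143 with I-BET151 and 1066 and 1170 with JQ1, against 1410 and 1342 in controls (adjusted p = 0.155 and 0.102). For the mean of both inhibitors, Klb passed in 5 of 8 alternative settings that kept all arrays and Flrt2 in 3 of 8.

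Heparan sulfate is the co-factor of FGF binding. Of 24 genes for its core proteins and enzymes, none was called under I-BET151, 2 fell under JQ1, and 1 rose and 2 fell for the mean of both inhibitors. Sdc3, a heparan sulfate core protein gene, was at 794 and 777 with I-BET151 and 646 and 710 with JQ1, against 959 and 979 in controls, and fell under JQ1 (log2 change -0.52 ± 0.07, adjusted p = 0.0358). Sulf2, whose enzyme strips 6-O-sulfates from heparan sulfate, was at 2272 and 2083 with I-BET151 and 1918 and 2100 with JQ1, against 2886 and 2819 in controls, and fell under JQ1 (-0.51 ± 0.08, adjusted p = 0.0472). Hs2st1, whose enzyme adds 2-O-sulfate, was at 496 and 547 with I-BET151 and 549 and 510 with JQ1, against 400 and 367 in controls, and rose for the mean of both inhibitors (0.45 ± 0.08, adjusted p = 0.0475). All 4 treated arrays stood clear of the controls for each of these 3 genes. The list's median was 0.04 under I-BET151 and 0.06 under JQ1.

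The cascade between receptor and ERK was examined next. Of 17 named genes, none was called with all arrays and genes in the fit, and the log2 changes lay between -0.19 and 0.25 under I-BET151 and between -0.26 and 0.33 under JQ1. Map2k1, which encodes the ERK kinase MEK1, came nearest, at 461 and 447 with I-BET151 and 478 and 479 with JQ1, against 374 and 390 in controls (mean of both, log2 change 0.29 ± 0.05, adjusted p = 0.0512). It passed for that mean in 5 of 8 alternative settings that kept all arrays, and under JQ1 in 5 of 9. Shc1, an adaptor gene, was at 661 and 646 with I-BET151 and 625 and 632 with JQ1, against 762 and 725 in controls (mean of both, adjusted p = 0.0896), and passed in 3 of 8 such settings. The 7 other genes of the list were not analysed here.

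Among 11 other feedback inhibitors of ERK, 1 fell under each inhibitor and none rose. That gene was Dusp9, which encodes a cytoplasmic ERK phosphatase of the same family as DUSP6: it was at 256 and 264 with I-BET151 and 253 and 266 with JQ1, against 547 and 571 in controls. It fell 2.15-fold under each (log2 change -1.10 ± 0.06 and -1.11 ± 0.06, adjusted p = 0.0306 and 0.0112), and the treated arrays agreed within 13 units. The next by p was Dusp1, at 609 and 598 with I-BET151 and 624 and 575 with JQ1, against 648 and 706 in controls, which was not called (adjusted p = 0.344 and 0.282).

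Of 12 other genes that ERK induces in many cells, 1 fell under I-BET151, 1 rose and 1 fell under JQ1, and 2 rose and 2 fell for the mean of both. Ccnd1, the cyclin D1 gene, was at 555 and 533 with I-BET151 and 504 and 507 with JQ1, against 987 and 999 in controls. It fell 1.83-fold and 1.96-fold (adjusted p = 0.0306 and 0.0112). Egr1, an immediate early transcription factor gene, was at 262 and 243 with I-BET151 and 262 and 262 with JQ1, against 182 and 170 in controls, and rose 1.49-fold under JQ1 (log2 change 0.57 ± 0.07, adjusted p = 0.0305). Egr1 was 1.43-fold higher under I-BET151, where it missed the threshold (adjusted p = 0.0586). Ier2, another immediate early gene, was at 269 and 295 with I-BET151 and 294 and 298 with JQ1, against 229 and 221 in controls, and rose for the mean of both inhibitors (log2 change 0.36 ± 0.06, adjusted p = 0.0485). Myc, a growth regulator, was at 429 and 468 with I-BET151 and 461 and 506 with JQ1, against 662 and 681 in controls, and fell for that mean (-0.53 ± 0.07, adjusted p = 0.0310). The treated arrays of these 4 genes stood clear of the controls, 2 genes above and 2 below.

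**Figure D3:**
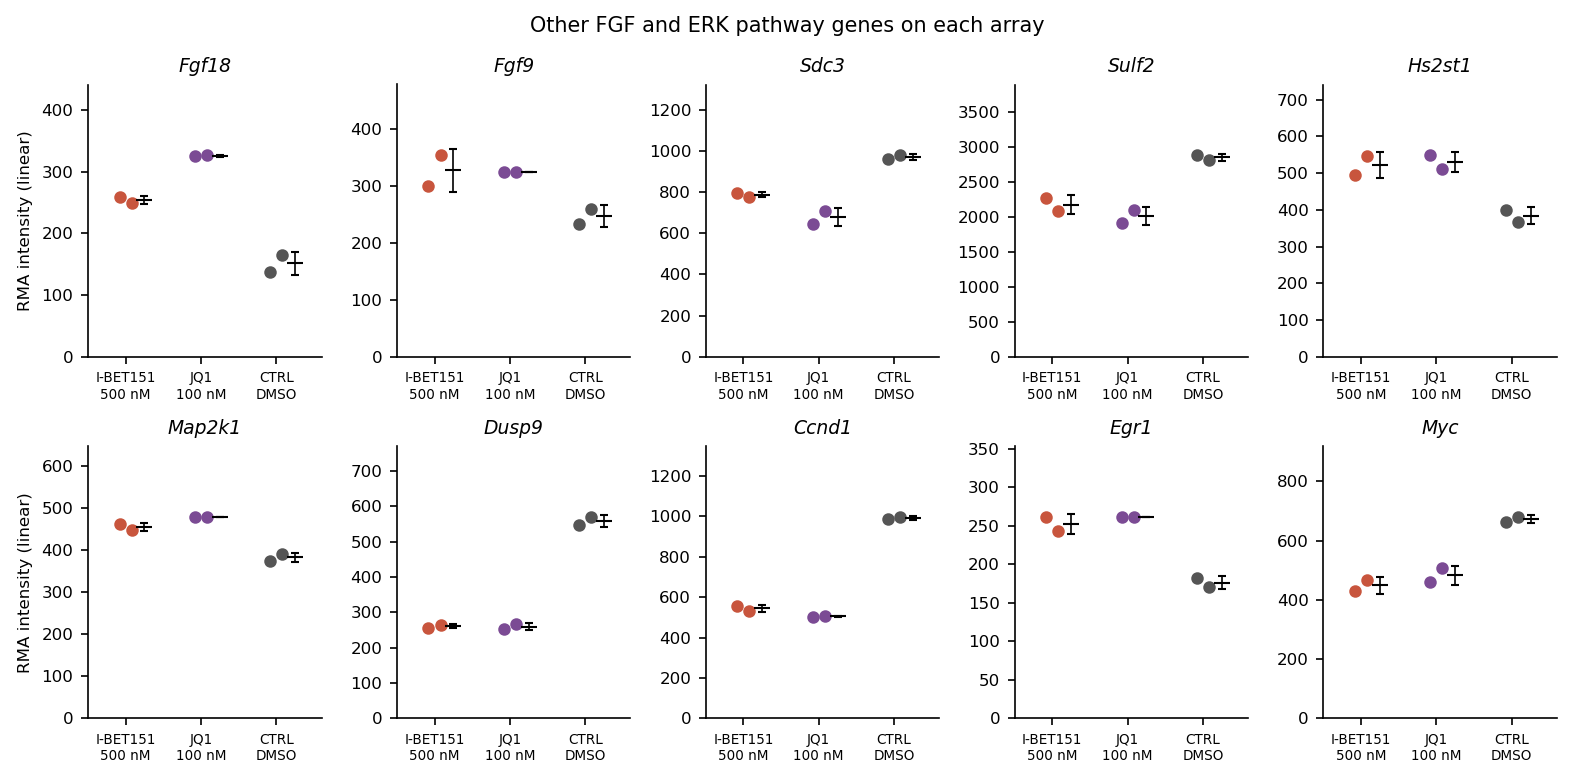
RMA intensity on a linear scale (y axis, from 0) on each array for 10 other genes of the pathway, with I-BET151 500 nM, JQ1 100 nM and control groups along the x axis. Points are arrays and bars are the mean ± SD of 2 arrays. Dusp9 lies between 253 and 266 on the 4 treated arrays and at 547 and 571 on the control arrays, and Fgf18 lies at 250 to 327 on the treated arrays and at 138 and 165 on the control arrays.

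Transcription factors of the cells that receive or send FGF10 were examined beside them. Of 11 progenitor factors, none was called with all arrays and genes in the fit, with medians of 0.09 under I-BET151 and 0.06 under JQ1. Sox9, which maintains Fgfr2 in the mouse pancreatic epithelium and was named after its values were seen, was at 1579 and 1458 with I-BET151 and 1418 and 1650 with JQ1, against 1531 and 1475 in controls. Nr5a2, a nuclear receptor gene, had the smallest p, at 487 and 523 with I-BET151 and 509 and 503 with JQ1, against 598 and 611 in controls (mean of both, adjusted p = 0.0727), and passed in 3 of 8 alternative settings that kept all arrays. Onecut1, a homeobox factor, followed, at 380 and 359 with I-BET151 and 304 and 353 with JQ1, against 319 and 326 in controls (mean of both, adjusted p = 0.491). Of 16 mesenchymal factors, 2 fell under JQ1 and none was called under I-BET151. Prrx1, a mesenchymal homeobox gene, was at 82 and 91 with I-BET151 and 76 and 65 with JQ1, against 139 and 175 in controls, and fell under JQ1 (-1.15 ± 0.15, adjusted p = 0.0332). Meox1, another mesenchymal homeobox gene, was dim, at 26 and 33 with I-BET151 and 24 and 26 with JQ1, against 49 and 46 in controls, and fell under JQ1 (-0.93 ± 0.13, adjusted p = 0.0397). For both genes every treated array was below the controls. Wt1, a factor of mesothelium and mesenchyme, was at 1227 and 1216 with I-BET151 and 1229 and 1112 with JQ1, against 919 and 911 in controls, and rose for the mean of both (log2 change 0.39 ± 0.06, adjusted p = 0.0436). Tbx3, a T-box factor, was at 348 and 361 with I-BET151 and 365 and 387 with JQ1, against 293 and 287 in controls, and rose for that mean (0.33 ± 0.05, adjusted p = 0.0456).

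**Figure D4:**
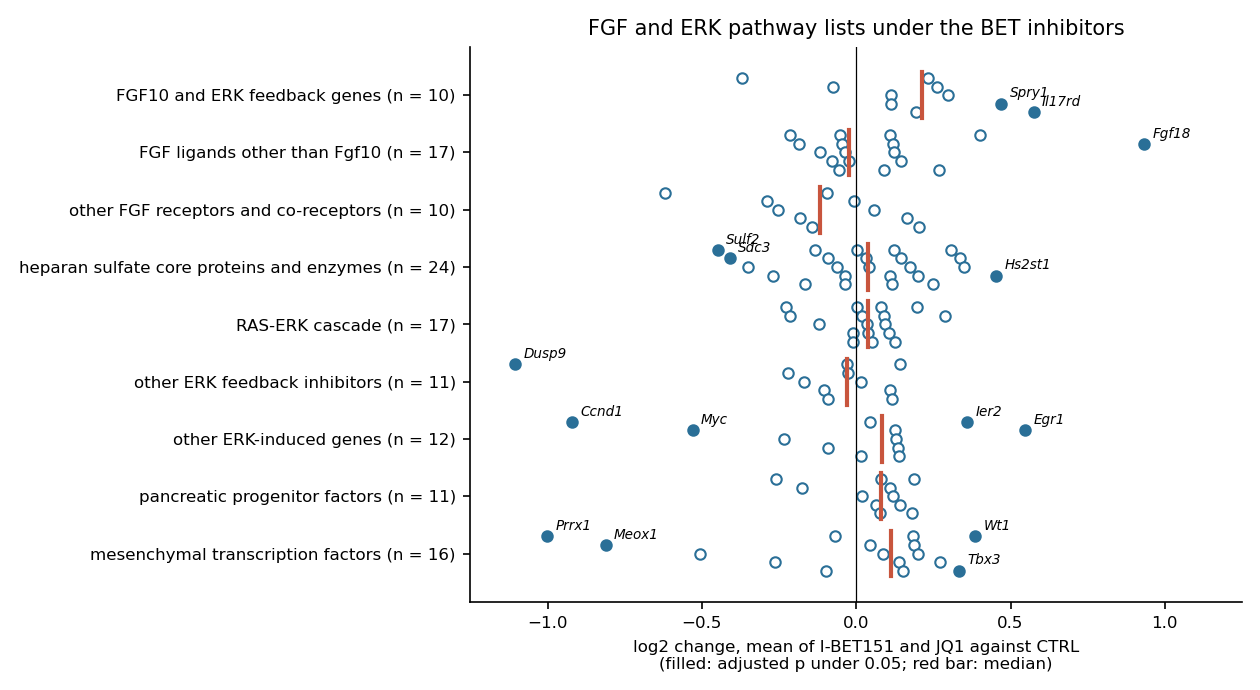
Log2 change for the mean of both inhibitors against control (x axis) of each gene in the 10-gene set and in 8 related lists (y axis). Filled, named points passed at an adjusted p under 0.05 and red bars are list medians. Spry1 and Il17rd are the filled points of the 10-gene set, Dusp9 and Ccnd1 lie furthest below 0 among the ERK lists, and Fgf18 is highest at 0.93.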

How the data were processed

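The authors deposited 1 table of RMA intensity values on a linear scale for 6 Affymetrix whole-transcript arrays, rounded to whole numbers with a lowest value of 5; RMA is named per the submitters' processing notes, with no version, and how they came back to a linear scale is not stated in the labels. RMA equalises the distributions of the arrays and so hides a shift common to most transcripts, and there are no detection calls. The number of arrays limits the precision. Of 24972 rows, 24014 had 1 gene symbol in the platform annotation and 958 had none and stayed unnamed here. Symbols were updated through Entrez IDs in RefSeq (23921 matched), and for 4 symbols with several rows the brightest row was kept, which left 24010 genes. Groups and replicate numbers came from sample titles. Log2(intensity), with no pseudocount and no filter, was fitted with limma 3.58.1 in R 4.3.3 on all 6 arrays (3 residual degrees of freedom, prior 1.76), and checked on simulated data. An exact permutation test of 2 arrays against 2 cannot go below p = 0.333. The genes and lists were chosen with earlier results of these data known, and lists are described by counts and medians with no set test. Named list genes were those called (up to 6) and the 2 with the smallest p for the mean of both inhibitors. Alternatives varied scaling, filter, pseudocount, prior, rounding, rows, samples and blocking.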

Additional observations from a re-analysis of the deposited data

How the results depend on the processing

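Alternatives did not turn the direction of Spry1, Spry2, Spry4, Il17rd, Fgfr1, Fgfr2, Dusp6 or Etv4 against control in any fit run. For Dusp6 and Fgfr2 this says little, since some log2 changes were almost 0. Dusp6 reached -0.0026 under I-BET151 and -0.00041 under JQ1, and Fgfr2 reached 0.010 under JQ1. The count of genes called was less stable. Under I-BET151, in place of 272 genes, 533 were called with each array centred on its median, 1422 without the dimmer 50% of genes, 798 without the dimmest 25%, 661 with a pseudocount of 16, 446 with an intensity trend in the prior and 599 with rounding dithered. Under JQ1, in place of 912, the counts were 1391, 2362, 1733, 1615 and 1377 for these settings, dithering aside, and for the mean of both inhibitors, in place of 1181, they were 2675 and 2045 without the dimmer 50% and 25% of genes and 1963 with the pseudocount. Of the 10 genes, 2 in place of 1 were called under JQ1 with median centring, without the dimmest 25% of genes, with the pseudocount and with the trend (Spry1 and Il17rd), and 4 without the dimmer 50% (with Fgfr1 and Spry2). For the mean of both, 5 in place of 2 were called without the dimmer 50% (with Fgfr1, Spry2 and Etv4), and 3 with median centring, with the pseudocount and with the trend (with Fgfr1). With only the groups of a contrast in the fit, 0 genes were called under I-BET151 and 0 under JQ1.

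With the replicate number as a block, 0 genes and 0 of the 10 were called in every contrast. Same-numbered arrays did not deviate together across genes (correlations of -0.04 to -0.02), so the numbers are not taken to pair the pools, and the block costs a degree of freedom.

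Leaving out single arrays, alone or with the dimmer 50% of genes, gave 0 to 1042 genes under I-BET151, 0 to 2205 under JQ1 and 0 to 2316 for the mean of both, and 0 to 2, 0 to 4 and 0 to 4 of the 10. In these fits the log2 change of Fgf10 ranged from -0.31 to 0.84 under I-BET151, from -0.46 to 0.69 under JQ1 and from -0.38 to 0.77 for the mean of both, and that of Etv5 from -0.10 to 0.23, -0.0079 to 0.32 and -0.054 to 0.28. Onecut1 under JQ1 ranged from -0.085 to 0.13. The uncalled I-BET151 minus JQ1 differences that turned sign ranged from -0.023 to 0.32 for Fgf10, -0.037 to 0.24 for Spry4, -0.086 to 0.021 for Il17rd, -0.11 to 0.063 for Dusp6, -0.21 to 0.044 for Etv4 and -0.25 to 0.064 for Etv5. A lone array left in a group is assumed to vary like the other groups. The cause of these differences was not tested.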
